A study of Mus musculus with 4 samples.

Results

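The genes described here are 10 tetraspanins of the fibroblast surface, namely Cd9, Cd63, Cd81, Cd82, Cd151, Tspan3, Tspan4, Tspan6, Tspan9 and Tspan31. They were taken as every probe set whose only gene symbol in the platform annotation was one of these names, which gave 19 probe sets of 9 genes, out of 18193 genes with a probe set of their own. Cd63 had no probe set under that rule and is not analysed here. RNA of NIH/3T3 cells, a mouse embryonic fibroblast line, was read on 4 Affymetrix arrays of 1 chip type, 2 of pseudopodia and 2 of cell bodies. All cells stood in serum-free medium above a porous membrane that carried fibronectin on its underside only. After 1 h of protrusion they were fixed in 0.3% formaldehyde for 10 min. The fixation was later reversed at 70 °C for 45 min. To collect a compartment the other was wiped away, so each array measured a bulk extract of many cells. The groups share the cell line, the medium, the fibronectin, the fixation and its reversal, and differ in the side of the membrane that was scraped. No sample without fibronectin was part of the comparison, and the labels do not say whether the samples of a compartment came from separate cultures. The p-values therefore cover the spread among these 4 samples alone, and that spread may be technical.

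Tetraspanins pass through the membrane several times and carry a short and a long loop on the outer face, the long one marked by conserved cysteines. They bind each other and partner proteins such as integrins, immunoglobulin-family receptors and proteases, and gather them into patches of membrane called tetraspanin-enriched microdomains. Like other surface proteins they are made on ribosomes bound to the endoplasmic reticulum. In fibroblasts they are known for roles in adhesion, spreading and migration, and several are standard markers of extracellular vesicles.

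Levels are given as linear probe set intensities. The lowest value, 20, was a floor that 30.5% to 34.8% of the probe sets on an array shared. Array medians were 40.5 to 45.6 and the highest values 13766 to 15025, so no member probe set above the filter reached the top of the scale. Log2 values correlated across the 11320 tested genes at 0.983 and 0.984 within a compartment and at 0.949 to 0.957 between compartments; genes are not independent replicates. The number of arrays limits the precision of every value. The fibroblast markers Vim and Col1a1 read 11544 to 12764 and 3031 to 8939, while Thy1, Lum and Fap lay at the floor on every array. The 10 haematopoietic markers with a probe set summed to 396 and 357 in pseudopodia and to 371 and 358 in cell bodies, and Itgam was at the floor on every array. The 10 epithelial markers summed to 3109 and 3184 in pseudopodia against 4144 and 3487 in cell bodies. Krt18 and Esrp1 were at the floor throughout, but Krt14, the brightest, read 1980 and 1835 in pseudopodia against 2665 and 2093 in cell bodies. None of the 8 epithelial and 4 haematopoietic markers above the filter was called. Of 13 fibroblast markers 9 were tested and 4 fell, Col1a1 among them (44.4%, beside 8.69% of all tested genes). The fibroblast list summed to 36837 and 37481.5 in pseudopodia against 55600.0 and 50807 in cell bodies. The part of these markers in the results was not tested.

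Tetraspanin messages were lower in pseudopodia than in cell bodies. Of the 9 measured genes, 7 fell and 0 rose by limma at a Benjamini-Hochberg adjusted p under 0.05, and the other two, Cd82 and Tspan6, also had differences below 0. Over all genes tested, 8.69% were called lower and 5.92% higher. The median log2 difference of the 9 genes, pseudopodia minus cell body, was -0.86, a level 1.81 times as high in cell bodies, beside -0.0020 over all tested genes. Both pseudopodia arrays lay below both cell body arrays for each of the 9 genes, as for 31.4% of all tested genes. An array gives a message's share of the RNA in a compartment. Bulk extracts do not show whether a lower share held in all cells or in only some.

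These calls need all 4 arrays. With any 1 array left out limma called 0 of the 9 genes, at 7 to 9 with an unadjusted p under 0.05, and without a filter on low values it called 0 as well, at 7. For the Actb control, the 3' probe set exceeded the 5' one by a log2 ratio of 0.56 and 0.65 in pseudopodia against 0.37 and 0.36 in cell bodies. For the Gapdh control the same ratio was -0.075 and -0.066 in pseudopodia against -0.095 and -0.098 in cell bodies. The part of either in these differences was not tested.

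**Figure D1:**
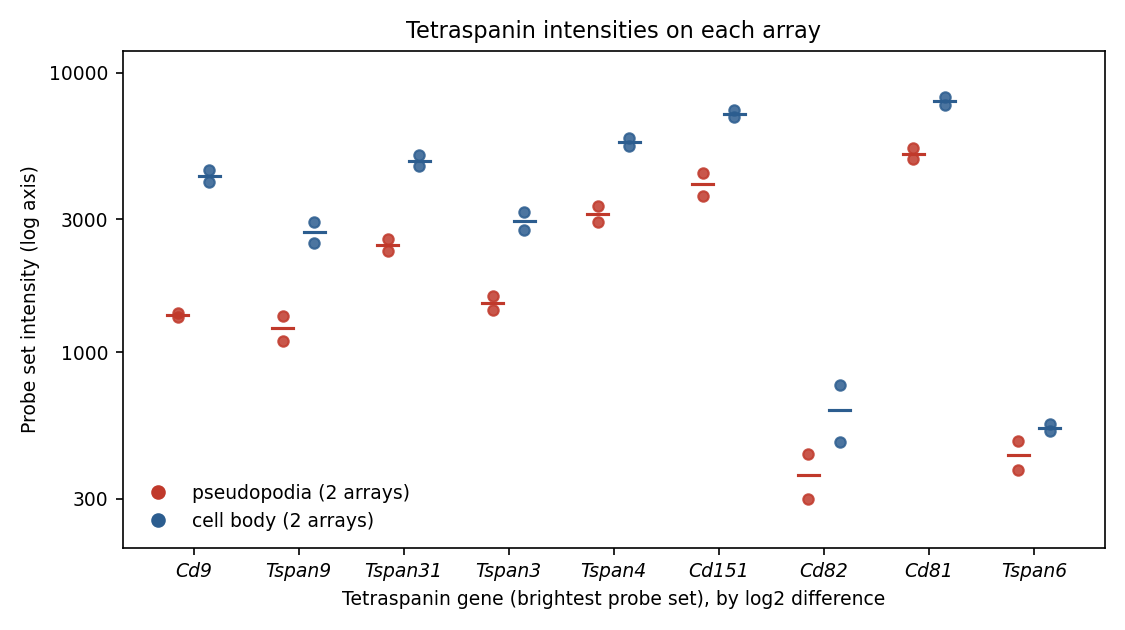
Intensity of the brightest probe set of each of the 9 tetraspanins (vertical log axis) on the 2 pseudopodia arrays (red) and the 2 cell body arrays (blue), with a short line at each mean. Genes run from the lowest log2 difference (Cd9, -1.65) to the one nearest 0 (Tspan6, -0.33), and no gene has overlapping compartments.

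Cd9, a classical surface tetraspanin that organises adhesion receptors and marks extracellular vesicles, differed most. Its intensity was 1383 and 1339.5 in pseudopodia against 4499.7 and 4066 in cell bodies. Both pseudopodia arrays were low and nearly equal, and the lower cell body array was 2.94 times the higher pseudopodia array. Cd9 fell by 1.65 on the log2 scale (SE 0.13, 95% interval -1.9998 to -1.30, adjusted p = 0.0166 by limma), which is 3.14-fold higher in cell bodies.

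Cd81, a close relative of Cd9 that shares its immunoglobulin-family partners, fell by the smallest amount among the called genes. It read 4926 and 5365 in pseudopodia against 8172 and 7645 in cell bodies. The compartments did not overlap, and the difference was -0.62 (SE 0.14, 95% interval -0.97 to -0.27, adjusted p = 0.0459 by limma), or 1.54-fold. This call lies close to the threshold and was lost with quantile normalization (adjusted p = 0.0648), after removal of probe sets with several target transcripts (0.0514) and when probe sets were tested singly (0.0638).

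Set against each other on the same array, Cd9 and Cd81 differed unequally. The log2 ratio of Cd9 to Cd81 was -1.83 and -2.001 in pseudopodia against -0.86 and -0.91 in cell bodies. The size of such a ratio on 1 array has no meaning between different probes, but its shift of -1.03 between compartments does. The ratio of Cd9 to each of the other 8 genes was lower on both pseudopodia arrays than on both cell body arrays. The smallest shift was against Tspan9, at -0.51, where the cell body ratios were 0.86 and 0.47 and those in pseudopodia 0.33 and -0.015. Cd9 was the member with the lowest difference, so its mean ratio to every other member had to shift downward. These shifts were not tested.

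The 2 genes mark the ends of the range among called members, and each has 1 start site in the RefSeq table of build GRCm38.p6, so the 250 bases before their starts are shown, 5' to 3' in the direction of the gene. Capitals mark GC boxes (GGGCGG, or CCGCCC on the other strand), the site bound by Sp-family factors. Cd9 lies at chr6:125494761-125495010 on the minus strand and Cd81 at chr7:143052500-143052749 on the plus strand.
Cd9: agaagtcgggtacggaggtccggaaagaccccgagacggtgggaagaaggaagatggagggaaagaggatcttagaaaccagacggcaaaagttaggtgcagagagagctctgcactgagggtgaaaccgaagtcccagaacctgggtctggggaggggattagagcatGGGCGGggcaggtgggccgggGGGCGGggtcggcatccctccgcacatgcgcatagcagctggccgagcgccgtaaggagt
Cd81: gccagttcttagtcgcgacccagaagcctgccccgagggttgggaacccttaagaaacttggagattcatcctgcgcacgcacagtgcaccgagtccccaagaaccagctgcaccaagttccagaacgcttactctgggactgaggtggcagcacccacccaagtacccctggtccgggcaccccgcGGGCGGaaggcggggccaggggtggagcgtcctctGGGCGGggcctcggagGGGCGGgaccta
Cd9 held 2 GC boxes and Cd81 held 3. Of the 10 tetraspanins, Cd63 included, 6 had a GC box at 1 or more of their 18 starts, and 8 of the 18 starts held one. Over all 32851 starts in the table, 32.7% held one. The share over all genes is not given here, and a gene with more starts has more chances to hold one, so the count of 6 has no background. A match is a description of these letters and says nothing of binding.

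Cd151, which ties laminin-binding integrins to tetraspanin patches, was the member with most probe sets, at 6. Its brightest one read 3616 and 4387 in pseudopodia against 7351 and 6939 in cell bodies. Cell bodies were higher on both arrays, and Cd151 fell by 0.84 (SE 0.16, adjusted p = 0.0322 by limma), or 1.79-fold. Cd82, known as a suppressor of metastasis, was dimmer and more scattered. It read 299 and 431 in pseudopodia against 765 and 477 in cell bodies. The nearest arrays of the 2 compartments lay only 1.10-fold apart, and the difference of -0.75 (SE 0.30, 95% interval -1.53 to 0.035) did not pass the test, at an adjusted p of 0.173 by limma.

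Tspan4 is best known from migrasomes, vesicles that migrating cells leave behind on their retraction fibres. It read 2935 and 3332 in pseudopodia against 5829 and 5496 in cell bodies. Arrays of a compartment lay close together and Tspan4 fell by 0.86 (SE 0.14, adjusted p = 0.0252 by limma), or 1.81-fold. Tspan9, a broadly expressed tetraspanin studied in platelets, read 1098 and 1354 in pseudopodia against 2473 and 2937 in cell bodies. Its fall of 1.14 (SE 0.18, adjusted p = 0.0225 by limma), or 2.21-fold, ranked next after that of Cd9.

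Tspan3 read 1422 and 1586 in pseudopodia against 3172 and 2739.6 in cell bodies, and fell by 0.97 (SE 0.15, adjusted p = 0.0226 by limma), or 1.96-fold. Tspan31, first found as a gene amplified in sarcoma, read 2312 and 2539 in pseudopodia against 5068 and 4628 in cell bodies. Tspan31 fell by 1.00 (SE 0.14, adjusted p = 0.0194 by limma), a call lost with the mean of its probe sets, 1 of them near the floor (0.0558). In both genes the 2 arrays of a compartment agreed far better than the compartments did. Tspan6, linked to the sorting of cargo into endosomal vesicles, had the weakest difference at its brightest probe set. It read 378 and 482 in pseudopodia against 555 and 522 in cell bodies. The upper pseudopodia array came within 1.08-fold of the lower cell body array, and the difference of -0.33 (SE 0.17, 95% interval -0.77 to 0.11, adjusted p = 0.259 by limma) was not called.

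In order of their differences the genes ran Cd9, Tspan9, Tspan31, Tspan3, Tspan4, Cd151, Cd82, Cd81 and Tspan6. From Tspan9 onward each value lay within the 95% interval of the next gene in that order, while that of Cd9 lay outside the interval of Tspan9. Differences between genes were not tested.

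Tested probe set by probe set, the tetraspanins gave the same direction with 1 exception. Of 17 probe sets above the filter, 11 fell and 0 rose by limma, beside 7.44% called lower and 4.30% called higher among all 22519 probe sets, and 16 had differences below 0. Their median was -0.87, against -0.0038 over all probe sets. Probe sets of 1 gene were read on the same arrays and are not independent of each other. The remaining 2 of the 19, Cd151 1420921_at and Tspan31 1455853_x_at, lay near the floor, at 20 to 20.6 and at 20 to 38.1.

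**Figure D2:**
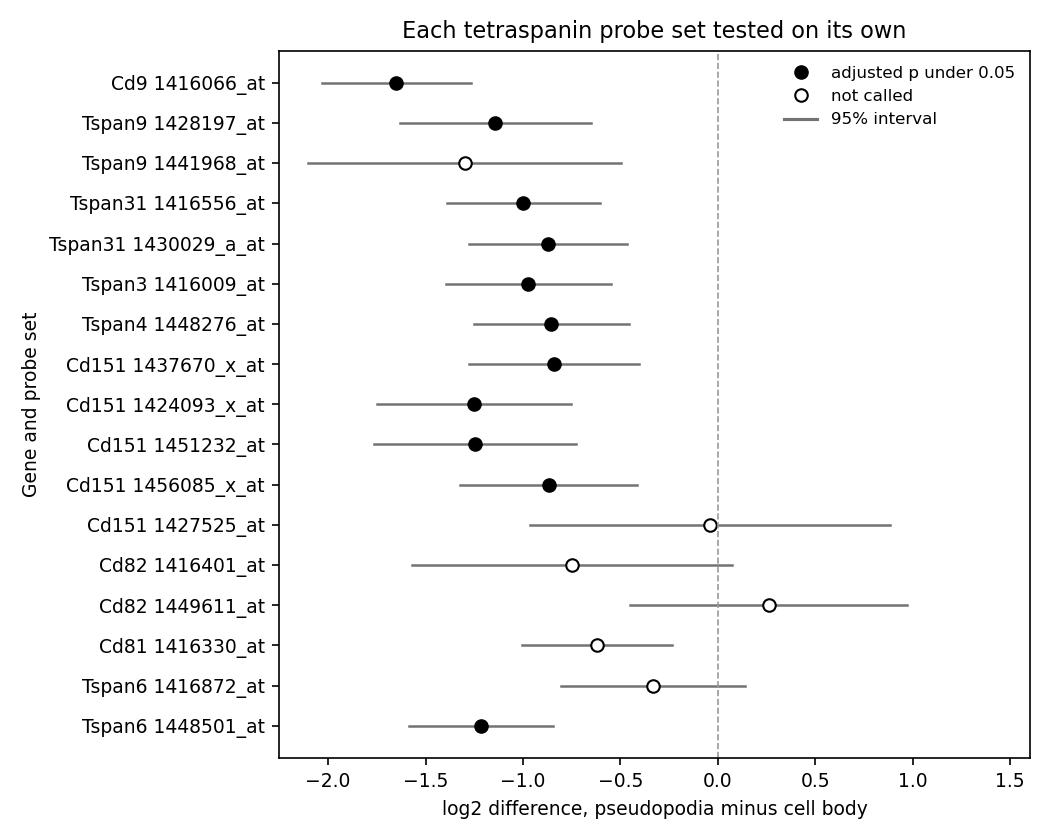
Log2 difference between pseudopodia and cell bodies (horizontal axis) with its 95% interval for the 17 tetraspanin probe sets above the filter, each tested on its own by limma. Filled circles mark the 11 that were called, all left of 0, and the open circle to the right of 0 is the dimmer Cd82 probe set at 0.26.

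The 2 probe sets of Tspan6 lay on either side of the threshold. The one with the lower mean over the arrays, 1448501_at, was designed to the same reference transcript. It read 278 and 285 in pseudopodia against 678 and 634 in cell bodies, well apart and tight within each compartment. In cell bodies it was the brighter of the pair. It fell by 1.22 (SE 0.14, adjusted p = 0.0241 by limma), while 1416872_at, the brightest by its mean over the arrays, was not called. The log2 ratio of 1448501_at to 1416872_at was -0.44 and -0.76 in pseudopodia and 0.29 and 0.28 in cell bodies, so the pair differed unequally. With the mean of both probe sets Tspan6 had a difference of -0.78 and was called, at an adjusted p of 0.0254 by limma.

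Among the Cd151 probe sets, 4 fell, in pairs of near-equal size. The probe sets 1437670_x_at and 1456085_x_at fell by 0.84 and 0.87, and 1451232_at and 1424093_x_at fell by 1.25 each. The latter pair was designed to 1 GenBank sequence and read nearly the same on each array, for example 1737 and 1718 on the first pseudopodia array. The _x_at probe sets hold probes that can match other transcripts, and 1451232_at does not carry that mark. It read 1737 and 2184 in pseudopodia against 5113 and 4178 in cell bodies, which is 2.37-fold (adjusted p = 0.0308 by limma). Taken as the gene's value in place of the brightest probe set, it gave an adjusted p of 0.0198 by limma. The dim 1427525_at read 97.7 and 182 against 117 and 160.2, overlapping, with a difference of -0.039 (95% interval -0.96 to 0.88).

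The other probe sets of Tspan31 and Tspan9 followed the brightest ones. Tspan31 1430029_a_at fell by 0.87 (SE 0.16, adjusted p = 0.0368 by limma). Tspan9 1441968_at read 114 and 102 in pseudopodia against 201 and 356 in cell bodies. That is a difference of -1.30 (SE 0.31), not called at an adjusted p of 0.0638 by limma, and its cell body arrays lay far apart. Cd82 1449611_at was the exception. It read 98.7 and 153 in pseudopodia against 90.9 and 116 in cell bodies, overlapping, with a difference of 0.26 (SE 0.27, adjusted p = 0.590 by limma), so the 2 probe sets of Cd82 differ in sign and neither was called.

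The differences were placed among those of all tested genes. For Cd9, 0.901% of the tested genes had a difference at or below its own, and for Tspan9 4.53%. The shares were 6.11% for Tspan31, 6.37% for Tspan3, 7.81% for Tspan4 and 7.95% for Cd151. Cd82, Cd81 and Tspan6 lay further in, at 9.39%, 11.9% and 21.3%.

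**Figure D3:**
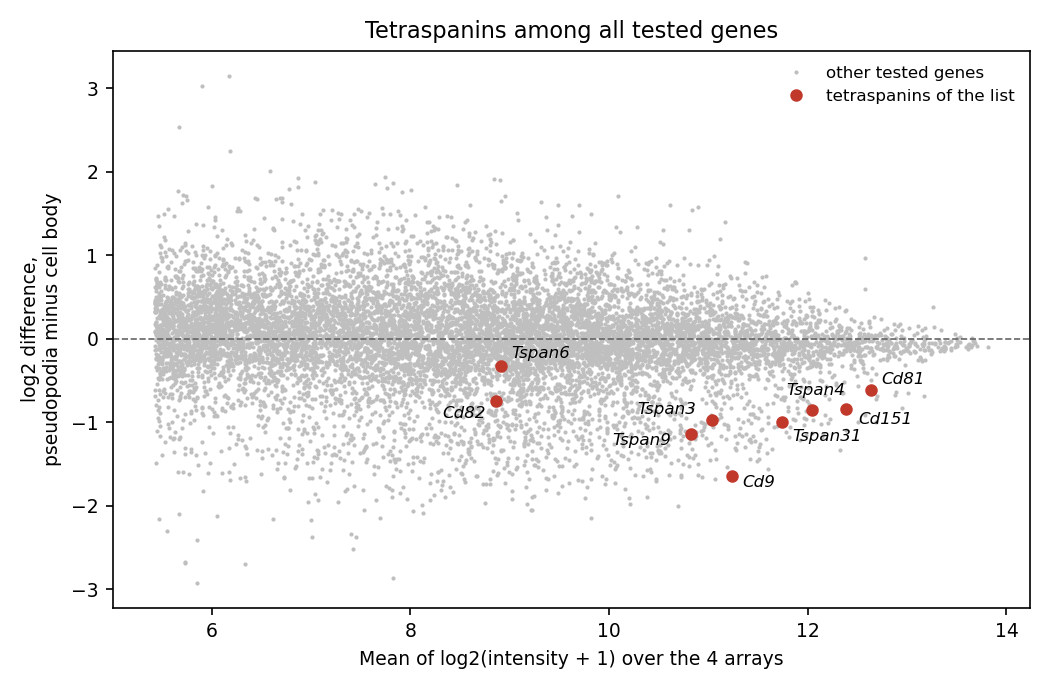
Log2 difference between pseudopodia and cell bodies (vertical axis) against the mean log2 level over the 4 arrays (horizontal axis) for the 11320 tested genes in grey and the 9 tetraspanins in red. All 9 lie below 0, from -0.33 for Tspan6 to -1.65 for Cd9.

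The genes whose values over the 4 arrays were most like those of Cd9, after removal of each gene's mean, were B3gnt2, Slc35f6 and Slc7a6. Their Euclidean distances to Cd9 were 0.041, 0.043 and 0.058 on the log2 scale, against a median of 1.68 over all tested genes. B3gnt2, a Golgi glycosyltransferase, read 370.4 and 367 in pseudopodia against 1225 and 1135 in cell bodies. Slc35f6, a solute carrier, read 189 on both pseudopodia arrays against 628 and 553, and Slc7a6, an amino acid transporter, read 207 and 205 against 682 and 644. With 4 arrays such a pattern is little more than the size of the difference.

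The rest of the tetraspanin family was mostly too dim to test. Of 21 other family members looked for, 20 had a probe set and 7 passed the filter on low values. Among those 7, 3 fell and 0 rose, beside 8.69% called lower and 5.92% higher over all tested genes, and the median was -0.34. Differences were below 0 for 4 of them, while Tspan13 (0.31), Tspan17 (0.24) and Tspan18 (0.45) lay above 0, none of them called. Tspan14, one of the tetraspanins that escort the metalloprotease ADAM10 out of the endoplasmic reticulum, read 302 and 317 in pseudopodia against 1118 and 1014 in cell bodies. It fell by 1.78 (SE 0.14, adjusted p = 0.0166 by limma), more than Cd9, at a probe set that can match several transcripts. Tspan11 read 530.0 and 719 against 1253 and 1264 and fell by 1.03 (SE 0.19, adjusted p = 0.0314 by limma). Tspan5, of the same ADAM10 group, read 747 and 761 against 1112 and 1269.6 and fell by 0.66 (SE 0.14, adjusted p = 0.0437 by limma). The Tspan5 call was lost with quantile normalization (adjusted p = 0.0571), with the mean of its probe sets (0.0559) and when probe sets were tested singly (0.0604), and its other probe set, at -0.33, was not called. The call of Tspan11 was lost with the mean of its probe sets (0.0937).

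Not every tetraspanin followed. Tspan17, the brightest of the other members and again an ADAM10 escort, read 1567 and 1810.0 in pseudopodia against 1683 and 1209 in cell bodies. Its arrays overlapped, and the difference was 0.24 (adjusted p = 0.502 by limma). Of the 7 genes in the list of ADAM10 and its escorts, 4 were tested, 2 fell and 0 rose, beside the same 8.69% and 5.92%, with a median of -0.39, and Adam10 itself had a difference of -0.13 (adjusted p = 0.725).

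Several tetraspanin genes are neighbours in the genome, by the order of protein-coding genes in the RefSeq table. On chromosome 7 only Polr2l lies between Cd151 and Tspan4, whose differences were -0.84 and -0.86, and Tspan32 lies beside Cd81, at -0.34 (adjusted p = 0.367 by limma) and -0.62. On chromosome 6 Tspan11 and Tspan9 are adjacent, at -1.03 and -1.14. On chromosome 2 Tspan18 lies beside Cd82, at 0.45 (adjusted p = 0.190 by limma) and -0.75, neither called. Each value is that of the gene's brightest probe set, and the other Cd151 probe sets above the filter ran from -1.25 to -0.039. These pairs are a description without a test.

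Partners of tetraspanins at the surface were mostly below 0. Of 25 listed, 21 were tested, 9 fell (42.9%, beside 8.69% of all tested genes) and 0 rose (5.92% of all), 19 had differences below 0, and the median was -0.86. Itga3, the integrin chain that pairs most tightly with Cd151, read 818 and 943 in pseudopodia against 2639.9 and 2839.8 in cell bodies, and fell by 1.64 (SE 0.15, adjusted p = 0.0166 by limma). Igsf8, the immunoglobulin-family partner of Cd9 and Cd81, read 352 and 535 against 1326 and 1176, and fell by 1.52 (SE 0.24, adjusted p = 0.0226 by limma). Its relative Ptgfrn, named after its values were seen, fell by 0.95 (SE 0.18). The fibronectin receptor chain Itga5 fell by 1.73 and Slc3a2, the heavy chain of amino acid transporters and a binder of integrins, fell by 1.13. Bsg, the brightest partner and an inducer of matrix metalloproteases, fell by 1.02 (SE 0.13). Itga6, another laminin-binding partner of Cd151, also named after its values were seen, had a difference of -1.04 (adjusted p = 0.0708).

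A list of other families, mostly surface proteins and mostly crossing the membrane several times, was also largely below 0. Of 24 listed, 20 were tested, 10 fell (50%, beside 8.69% of all tested genes) and 0 rose (5.92% of all), and the median was -0.75. Differences were below 0 for 18, while Mal (0.16) and Tmem47 (0.30) lay above 0 and were not called. Itm2c fell by 1.34 (SE 0.19) and Itm2b fell by 1.12 (SE 0.21); both belong to the BRICHOS family and cross the membrane once. The Itm2b call was lost with the mean of its probe sets (-0.52, adjusted p = 0.122 by limma) and after removal of probe sets with several target transcripts (-0.46, 0.354). Cmtm6, a four-span protein that stabilises PD-L1, fell by 1.26 (SE 0.14) and Lhfpl2 fell by 1.19 (SE 0.17). Emp3, the brightest member and a four-span relative of Pmp22, read 4696 and 5239.6 in pseudopodia against 6606 and 6882 in cell bodies, a difference of -0.44 (adjusted p = 0.0978 by limma).

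**Figure D4:**
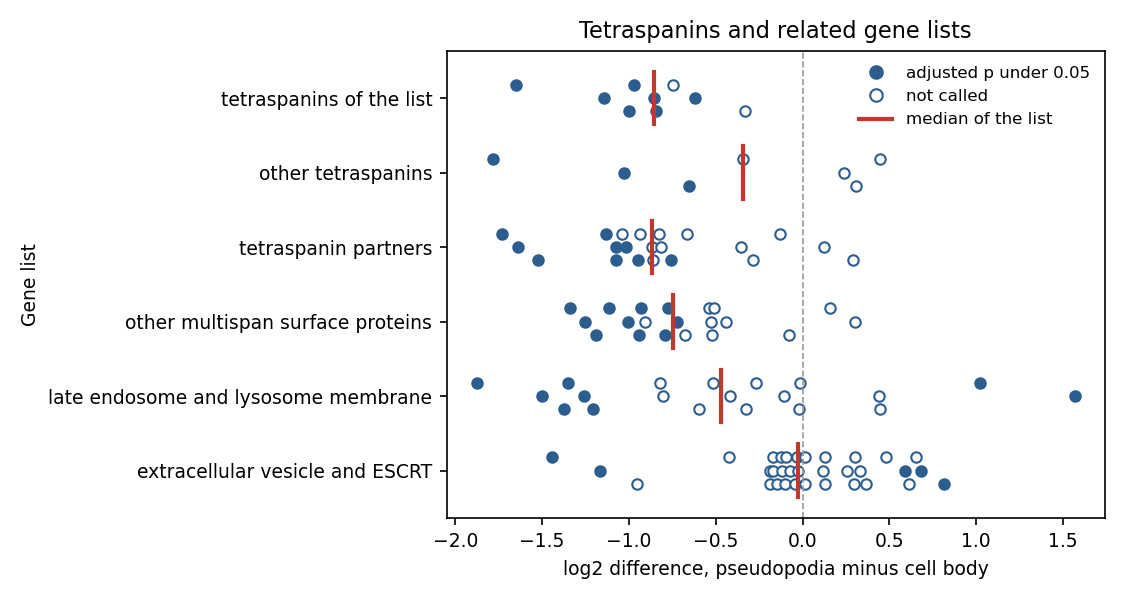
Log2 difference between pseudopodia and cell bodies (horizontal axis) for each tested gene of 6 lists, filled where limma called it, with a red line at the median of the list. The medians are -0.86 for the 9 tetraspanins, -0.34 for other tetraspanins, -0.86 for partners, -0.75 for multispan surface proteins, -0.47 for late endosome and lysosome membrane and -0.026 for vesicle formation.

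The list for membranes of late endosomes and lysosomes, the compartment that Cd63 marks, was mixed. Besides proteins that span the membrane it held Rab7 and subunits of the AP-3 coat, which attach from the cytosol. All 20 listed were tested, 6 fell (30.0%, beside 8.69% of all tested genes) and 2 rose (10.0%, beside 5.92%), and the median was -0.47. Differences were below 0 for 16. Those above 0 were Vamp7 and the AP-3 subunits Ap3m1, Ap3b1 (0.44, not called) and Ap3s1 (0.44, not called). Tmem9 fell by 1.88 (SE 0.18), Atp6ap1, an accessory subunit of the proton pump, fell by 1.501 (SE 0.16), the cystine carrier Ctns fell by 1.37 (SE 0.17) and Laptm4a fell by 1.35 (SE 0.16). Vamp7, a SNARE that fuses late endosomes and lysosomes with other membranes, rose by 1.57 (SE 0.15), from 129 and 114 in cell bodies to 384 and 340.1 in pseudopodia. Ap3m1, a subunit of the AP-3 coat that sorts cargo to lysosomes, rose by 1.02 (SE 0.13), while 1 of its other probe sets had the opposite sign and the call was lost with the mean of its probe sets (0.58, adjusted p = 0.0620 by limma). Lamp1, the brightest, had a difference of -0.42 (adjusted p = 0.117 by limma).

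The machinery that sorts cargo into endosomal vesicles and releases them, most of it cytosolic, showed no common direction. All 33 listed genes were tested, 2 fell (6.06%), 3 rose (9.09%) and 28 were not called, and the median was -0.026. Over all tested genes 8.69% were called lower and 5.92% higher, so these shares lie near the background and are no result about the list. Smpd3, a membrane sphingomyelinase, fell by 1.44 (SE 0.18), while 1 of its other probe sets had the opposite sign, and the proteoglycan Sdc1 fell by 1.17 (SE 0.16). Those that rose were the ATPase Vps4b by 0.82 (SE 0.13), the ESCRT-III subunit Chmp2b by 0.68 (SE 0.13) and the ubiquitin adaptor Stam by 0.59 (SE 0.13, adjusted p = 0.0455 by limma). With the mean of a gene's probe sets none of the 3 was called, at 0.51, 0.36 and 0.16. Tested singly, the Chmp2b and Stam probe sets were not called either (adjusted p = 0.0512 and 0.0643), and Stam was also lost with median centring (0.0793) and after removal of probe sets with several target transcripts (0.0527). Chmp4b, the brightest, read 4409 and 4214 in pseudopodia against 4158 and 3728 in cell bodies, a difference of 0.13 (adjusted p = 0.580). The differences between these lists were not tested.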

How the data were processed

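RNA was measured on 4 Affymetrix arrays, 2 per compartment. The authors deposited linear intensities, 1 per probe set and array, with 20 as the lowest value. Their summarisation and scaling: not given in the sources used here. Per the file headers, each array's record is of no measurement unit (other): it lists 1 chip lot, 1 station, 1 hybridization date, 1 scanner and 1 scan day for all arrays. The module record differed on each of the 4 arrays, so it could not be fitted as a batch.

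From these, log2(intensity + 1) was computed and the 64 control probe sets were left out. The brightest probe set with 1 symbol stood for its gene. Genes with a mean below the median of the 45037 other probe sets (log2 5.425) were left out, which kept 11320. Compartments were compared in R 4.3.3 with limma 3.58.1 (lmFit, eBayes, two-sided, Benjamini-Hochberg over all genes), and again over 22519 probe sets taken singly. Intensities are mapped to genes by the platform annotation; the 9 measured members matched RefSeq by gene ID. The 3 ways to split 4 arrays into pairs cannot give a permutation p under 33.3%, so none was run. The fit was tested on simulated data.

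Members and gene lists were chosen with earlier results of these data known. Named from each related list were up to 4 called genes in each direction with the largest differences and the brightest gene, and the 3 genes nearest Cd9, the member with the largest difference. Other genes are marked as chosen later. Alternatives covered the pseudocount, filter, scaling, probe set choice, replicate block and each array left out.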

Additional observations from a re-analysis of the deposited data

How the results depend on the processing

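All 117 values of the 9 tetraspanins under 13 alternatives kept a difference below 0. Many of these signs were fixed in advance. Changes of filter, the replicate block and single probe sets reuse the same difference. Leaving out an array or changing the pseudocount cannot turn a sign where the compartments do not overlap. Counts of genes called lower and higher were 984 and 670; they were 2 and 0 without a filter (2025 and 1819 at an unadjusted p under 0.05) and 1676 and 969 when probe sets were tested singly. Without a filter the counts called lower were 0 for the 9 tetraspanins (7 unadjusted), for their probe sets and for every related list, and the counts called higher were 0 as well. With each array left out in turn, every count was 0, from 0 to 0, with 1397 to 1604 genes lower and 1196 to 1494 higher at an unadjusted p under 0.05; the lone array of a compartment is then assumed to vary like the others. The tetraspanin count was 6 or 7 otherwise. With the mean of a gene's probe sets it stayed at 7 with Tspan6 in and Tspan31 out (-0.68, adjusted p = 0.0558). The mean of probe sets gave 1 other tetraspanin, 1 gene of the ADAM10 list, and 0 vesicle genes and 1 lysosome gene higher. The ADAM10 list also had 1 with quantile normalization, after removal of probe sets with several target transcripts and when probe sets were tested singly; the latter 2 settings gave 1 vesicle gene higher. The partners had 15 lower with median centring and with the stricter filter. The share of all genes called at these settings is not given here, so that count is no result about the partners. Of the other named genes, 144 calls were lost and 0 reversed over all alternatives.

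The replicate numbers are shared by the compartments, but nothing says that they pair the samples. Deviations of same-numbered arrays from their group means correlated at 0.342 over genes. With the replicate number as a block, limma called 1214 genes lower and 988 higher, 7 tetraspanins lower and 0 higher, and 10 of their probe sets lower; Tspan6 and Cd82 stayed uncalled. With 2 arrays a compartment, a difference that did not pass is not shown to be absent, and values at the floor of 20 are upper bounds.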
